A study of Drosophila melanogaster with 6 samples.

Results

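The genes described here are 10 genes of the actin cytoskeleton in *Drosophila melanogaster*: the actin genes Act5C, Act42A and Act57B, the monomer-binding and turnover factors chic and tsr, the myosin II chains zip and sqh, and the filament-associated proteins cher, Tm1 and Cortactin. They were chosen by name, 10 of 17526 genes with a value in the tables, and 9 of them passed a filter of a mean of at least 1 FPKM (fragments per transcript length, scaled to the size of the library) over the 6 libraries. RNA-seq libraries were made from wing imaginal discs, the larval epithelia that give rise to the adult wing and notum. Of these, 3 libraries came from discs with the MS1096-Gal4 driver and an RNAi transgene against dNKAP, the fly gene CG6066, and 3 control libraries came from discs with MS1096-Gal4 and no such transgene. The comparison asks how the RNA of these genes differs between dNKAP RNAi discs and discs that carry the same driver.

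Actin filaments grow from monomers that profilin delivers and are taken apart by cofilin, and myosin II pulls on them to make tension. In an epithelium such as the wing disc this network lies under the apical junctions, where it sets cell shape and the folding of the tissue. Filamins, tropomyosins and cortactin cross-link the filaments, coat them or hold their branches.

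MS1096-Gal4, an insertion at Beadex, is active mainly in the wing pouch, and RNA was taken from the whole disc, other regions included. The labels state neither the age nor the sex of the larvae, nor how many discs went into a library. Nothing in the labels says that the libraries of a group came from separate crosses, so p-values measure only the spread between these samples. CG6066 had 13.96, 13.3 and 11.4 FPKM in dNKAP RNAi replicates 1 to 3, against 23.6, 22.8 and 26.6 FPKM in control replicates 1 to 3. The groups did not overlap, and the gene fell by 0.90 on the log2(FPKM + 0.5) scale (SE 0.11, limma adjusted p = 0.0146). With 1 library left out its adjusted p was 0.0402 to 0.0584, above 0.05 without dNKAP RNAi replicate 2, control replicate 1 or control replicate 3. Depth, as read depth times transcript length, was 4.14 to 4.55 gigabases in dNKAP RNAi libraries and 4.71 to 6.44 gigabases in controls. A value of 0 in these tables can be a failed estimate, since 995 of 6506 tested genes were listed at 0 in at least 1 library.

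Markers of regions and cell types were summed per library. The 4 wing pouch markers summed to 254 to 300 FPKM in dNKAP RNAi discs and 223 to 236 FPKM in controls. The 6 notum and hinge markers summed to 184 to 220 FPKM in dNKAP RNAi discs and 264 to 310 FPKM in controls. Neither of these pairs of ranges overlapped. By limma 0 of these 10 markers were called, and 1, hth of the hinge, had an unadjusted p under 0.05, with lower values in dNKAP RNAi discs. Of the 6 notum and hinge markers hth alone had groups that did not overlap. Over all tested genes 3.72% were called, 19.0% had an unadjusted p under 0.05 and 28.5% had groups that did not overlap. The log2 change was below 0 for 4 of the 6 and above 0 for 2, ara and tup. The pouch genes nub, vg and rn had 46.5 FPKM or more in every library, and Bx was at 0 in 3. The 4 fat body markers summed to 152 to 570 FPKM in dNKAP RNAi discs and 0.991 to 41.8 FPKM in controls, with Lsp2 and Lsp1beta at 0 in all 6 libraries. Of the other 2 fat body markers, Fbp1 had groups that did not overlap and Lsp1alpha had groups that did. Sums of the markers of adult muscle precursors (twi at 0), hemocytes, trachea and salivary gland overlapped between the groups. Over these lists, those of fat body and the muscle markers given with Act57B, limma called 0 of 16 tested markers. An unadjusted p under 0.05 was found for 3 of the 16, or 18.8%, against 19.0% of all tested genes. These 3 also had groups that did not overlap: htl of muscle precursors, lower in dNKAP RNAi discs, and Fbp1 of fat body and sls of muscle, higher in them. The part of these shifts in the results that follow was not tested.

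Among the 9 tested genes 1 was lower in dNKAP RNAi discs, 0 were higher and 8 did not pass the test. Over all 6506 tested genes limma at an adjusted p of 0.05 called 33 lower, 0.507% of genes, and 209 higher, 3.21% of genes, which makes 3.72% in either direction. The higher calls were thus 86.4% of all gene calls, against 75.1% after quantile normalization. The groups did not overlap for 2 of the 9 genes, Act42A and tsr, against 28.5% of all tested genes. The same 2 had an unadjusted p under 0.05, as did 1235 of all tested genes. The log2 change was below 0 for 7 of the 9 genes, with a median of -0.29, against 45.6% of all tested genes and a median of 0.03. After quantile normalization these medians were -0.10 for the 9 genes and -0.04 for all genes. With exact matches alone they were -0.56 for the 9 genes, all of them below 0, and 0.02 for all genes. That setting leaves out newly assembled isoforms, which for sqh, zip and Cortactin were seen only in dNKAP RNAi libraries. It also puts cher at 0 in dNKAP RNAi replicate 3.

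**Figure D1:**
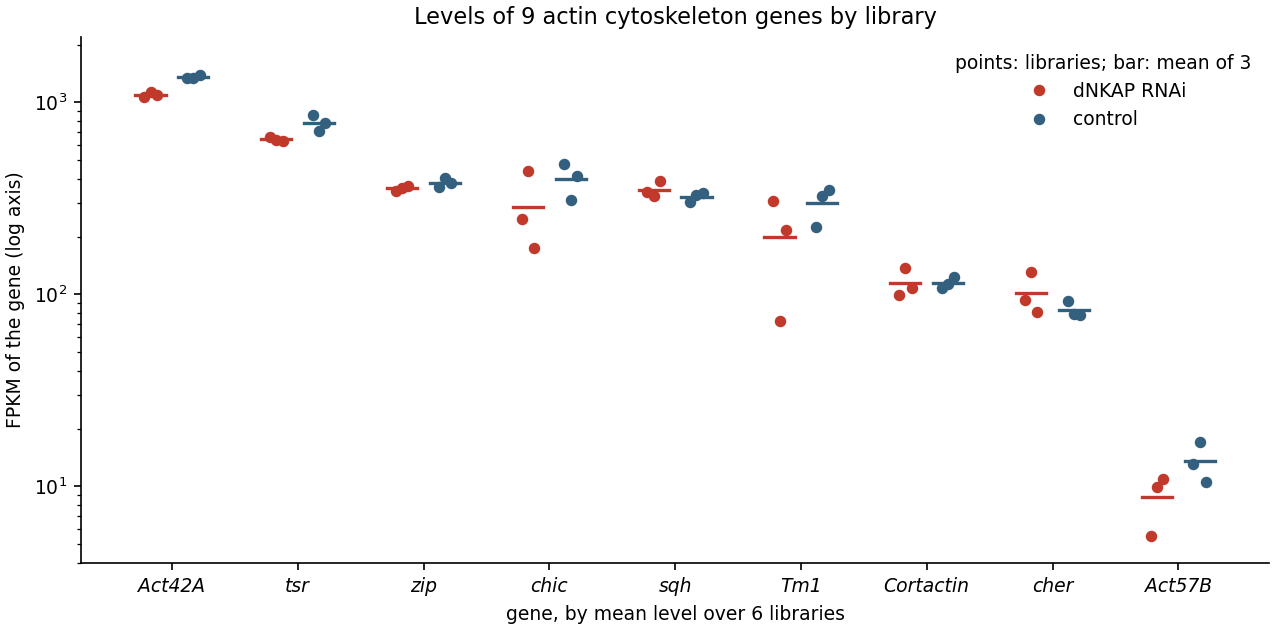
FPKM of each gene (log axis) in 3 dNKAP RNAi libraries (red, left in each pair) and 3 control libraries (blue, right); points are libraries and bars are means. The groups do not overlap for Act42A and tsr, and chic and Tm1 spread widest relative to their level in the dNKAP RNAi group; Act5C, at 0 in every library, is not drawn.

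FPKM is a level per length, so genes can be set in order. Over 6 libraries Act42A averaged 1226 FPKM, tsr 714, zip 370, chic 343, sqh 337, Tm1 249, Cortactin 115, cher 92.7 and Act57B 11.2 FPKM. Act42A ranked 61st and tsr 77th among 6506 tested genes by this mean level, and 6 of the 10 genes lay at or above percentile 95. In this order the ranges of zip and chic, and of chic and sqh, overlapped within each group. Those of zip and sqh overlapped in dNKAP RNAi discs but not in controls, as did those of Cortactin and cher. The ranges of sqh and Tm1 overlapped in controls but not in dNKAP RNAi discs. Tm1 lay under Cortactin in dNKAP RNAi replicate 2 and above it in the other libraries. Act42A was above tsr in each library, and Act57B was the lowest of the 9 tested genes in each.

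Act42A, which encodes a cytoplasmic actin, was the 1 gene of the 10 past the test. It had 1071, 1134 and 1092 FPKM in dNKAP RNAi replicates 1 to 3, against 1341, 1334 and 1385 FPKM in control replicates 1 to 3. Every dNKAP RNAi library was below every control. The means were 1099 ± 31.6 FPKM in dNKAP RNAi discs and 1353 ± 27.5 FPKM in controls (SD, n = 3 each), a ratio of 0.812. The log2 change was -0.30 (SE 0.05, 95% interval -0.42 to -0.18, limma adjusted p = 0.0383). The call was lost, with adjusted p of 0.0849 to 0.129, when any 1 of the 6 libraries was left out, and after quantile normalization the log2 change was -0.10 (adjusted p = 0.583); the adjusted p ranged from 0.0227 to 0.583 over 14 alternatives. In whole discs, fewer cells of a type and less RNA per cell cannot be told apart. Act42A (FBgn0000043) lies on 2R, 6013910 to 6015689, minus strand of BDGP6, the assembly called dm6, and has 1 annotated transcript of 1626 bases. The half-width of the deposited bounds of its FPKM within a library was 0.850% to 1.19% of the value.

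The tested genes whose log2 level followed Act42A most closely over the 6 libraries were MED26 (Pearson's r = 0.991), ari-1 (0.990) and Taf10 (0.990). These coefficients describe 6 libraries that share the group difference and the normalization. MED26, a Mediator subunit, averaged 0.823 FPKM in dNKAP RNAi discs and 1.53 FPKM in controls. The ubiquitin ligase gene ari-1 averaged 1.47 FPKM in dNKAP RNAi discs and 5.94 FPKM in controls, and Taf10, for a subunit of TFIID, 63.9 FPKM in dNKAP RNAi discs and 82.5 FPKM in controls.

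Act57B, a muscle actin gene of embryos and larvae, had 5.53, 9.95 and 10.9 FPKM in dNKAP RNAi replicates 1 to 3, against 13.1, 17.1 and 10.6 FPKM in control replicates 1 to 3. Control replicate 3 lay below dNKAP RNAi replicate 3, so the groups overlapped. The means were 8.81 ± 2.88 FPKM in dNKAP RNAi discs and 13.6 ± 3.29 FPKM in controls (SD, n = 3 each), and the log2 change of -0.63 (SE 0.31) did not pass (limma adjusted p = 0.337). It was -0.34 without dNKAP RNAi replicate 1. The 8 markers of differentiated muscle summed to 11.3 to 21.2 FPKM in dNKAP RNAi discs and 7.96 to 15.2 FPKM in controls, with Mlc1 at 0 in all and 2 markers, sls and Mlc2, above the filter. Their part in the level of Act57B was not tested. The gene shares 96 exon bases with a small nucleolar RNA gene on the same strand, which was listed at 0 in every library.

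Act5C, for the other cytoplasmic actin, was listed at 0 in all 6 libraries, on both of its transcripts in the tables. The highest upper bound given with these values was 0.0436 FPKM. It could not be tested. Actin genes share long stretches of coding sequence, and the sources used here do not say how reads that match several of them were assigned, so the level of each single actin gene is uncertain. Of the other 3 actin genes, which form parts of muscle, Act87E was at 0 in all libraries, Act79B was at 0 in 4, and Act88F had 0.115 to 0.451 FPKM in dNKAP RNAi discs and 0.097 to 0.355 FPKM in controls.

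The cofilin gene tsr (twinstar), whose product severs and depolymerizes filaments, had 662, 637 and 628 FPKM in dNKAP RNAi replicates 1 to 3, against 858, 713 and 786 FPKM in control replicates 1 to 3. All dNKAP RNAi libraries were below all controls. The means were 643 ± 17.7 FPKM in dNKAP RNAi discs and 786 ± 72.3 FPKM in controls (SD, n = 3 each). The log2 change of -0.29 (SE 0.08, 95% interval -0.49 to -0.08) did not pass the test over all genes (limma adjusted p = 0.143, and 0.0907 to 0.358 over 14 alternatives). After quantile normalization it was -0.14. At 735 bases its 1 transcript is the shortest of those above 0 under their own name among the 10 genes.

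The profilin gene chic (chickadee), whose product supplies actin monomers to growing ends, had 249, 438 and 175 FPKM in dNKAP RNAi replicates 1 to 3, against 477, 310 and 412 FPKM in control replicates 1 to 3. The second dNKAP RNAi library lay among the controls and the other two lay below them. The log2 change was -0.56 (SE 0.37, 95% interval -1.49 to 0.38, limma adjusted p = 0.478), with means of 287 ± 136 FPKM in dNKAP RNAi discs and 400 ± 84.1 FPKM in controls (SD, n = 3 each). It was -0.91 when dNKAP RNAi replicate 2 was left out and -0.25 when replicate 3 of that group was. Of 6 reference transcripts, FBtr0309212 was above 0 in all libraries. Another, FBtr0079233, had 151 FPKM in control replicate 1 and was at 0 elsewhere; both encode 126 codons over the same coding span.

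**Figure D2:**
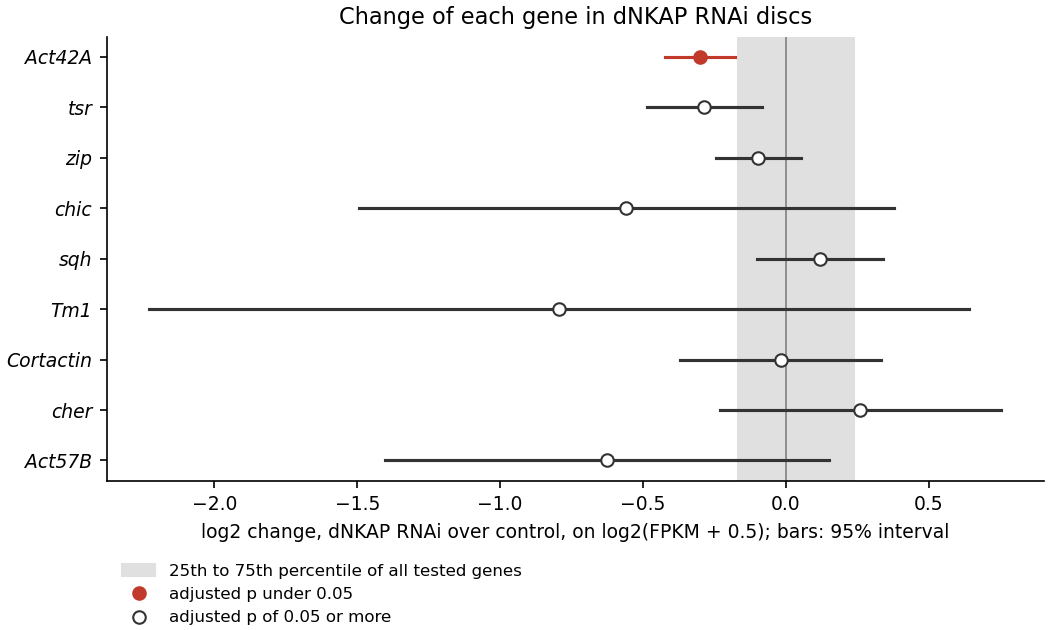
Log2 change, dNKAP RNAi over control, of the 9 tested genes on the log2(FPKM + 0.5) scale, with 95% intervals; the grey band spans the middle 50% of all tested genes (-0.17 to 0.24). Act42A alone is filled, with an adjusted p under 0.05, and the interval of Tm1 is the widest.

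Of non-muscle myosin II, the motor that contracts the actin cortex, neither the heavy chain gene nor the regulatory light chain gene passed the test. The heavy chain gene zip (zipper) had 348, 357 and 367 FPKM in dNKAP RNAi replicates 1 to 3, against 361, 405 and 381 FPKM in control replicates 1 to 3. Its groups overlapped by 1 library on each side. The means were 357 ± 9.40 FPKM in dNKAP RNAi discs and 382 ± 22.1 FPKM in controls (SD, n = 3 each), with a log2 change of -0.10 (SE 0.06, 95% interval -0.25 to 0.05, limma adjusted p = 0.440). With exact matches alone the log2 change of zip was -0.60 (adjusted p = 0.595). In 5 libraries its whole value was on FBtr0100466. In dNKAP RNAi replicate 1 that transcript had 121 FPKM, and a newly assembled isoform of 6145 bases, nearest to FBtr0302575, had 227 FPKM.

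The regulatory light chain gene sqh (spaghetti squash) had 341, 324 and 389 FPKM in dNKAP RNAi replicates 1 to 3, against 302, 330 and 336 FPKM in control replicates 1 to 3. The groups overlapped, with a log2 change of 0.12 (SE 0.09, 95% interval -0.10 to 0.34, limma adjusted p = 0.524). Controls and dNKAP RNAi replicate 2 had FBtr0070877 alone. In dNKAP RNAi replicates 1 and 3 new isoforms of 663 and 676 bases, nearest to FBtr0339503, had 129 and 138 FPKM. Without them the log2 change had the other sign, -0.32 (adjusted p = 0.426), since FBtr0070877 was left with 212, 324 and 251 FPKM in dNKAP RNAi replicates 1 to 3. The usage of FBtr0070877 against the other transcript of sqh did not pass (limma diffSplice adjusted p = 0.478).

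The filamin gene cher (cheerio), for a long cross-linker of filaments, had 93.4, 131 and 80.9 FPKM in dNKAP RNAi replicates 1 to 3, against 92.6, 79.1 and 78.6 FPKM in control replicates 1 to 3. The second dNKAP RNAi library was the highest and the others lay near the controls. The log2 change of 0.26 (SE 0.20, 95% interval -0.23 to 0.75) did not pass (limma adjusted p = 0.531). It was 0.06 when dNKAP RNAi replicate 2 was left out and 0.41 when replicate 3 of that group was. Much of the level was on newly assembled isoforms, 80.5%, 64.5% and 100% of it in dNKAP RNAi replicates 1 to 3 and 86.2%, 79.2% and 23.6% in control replicates 1 to 3, and with exact matches alone, where dNKAP RNAi replicate 3 is at 0, the log2 change was -1.65 (adjusted p = 0.676).

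Short forms of cher were seen in 2 libraries. In dNKAP RNAi replicate 2 FBtr0089473, a transcript of 3219 bases with 838 codons, had 46.6 FPKM. In control replicate 1 a new isoform of 2598 bases had 40.7 FPKM. Transcripts of at least 7000 bases, such as FBtr0303364 with 2240 codons and FBtr0089471 with 2210, summed to 93.4, 84.8 and 80.9 FPKM in dNKAP RNAi replicates 1 to 3 and to 51.9, 79.1 and 78.6 FPKM in control replicates 1 to 3. This length class was set after the values were seen and was not tested. The gene shares 406 exon bases with cal1 on the other strand, which was listed at 0 in all dNKAP RNAi libraries and in control replicate 1, and at 26.9 and 24.4 FPKM in control replicates 2 and 3. The sources used here do not say whether strand was used, so reads of this overlap cannot be told apart.

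Tm1, a tropomyosin gene whose product lines actin filaments, had 308, 72.7 and 217 FPKM in dNKAP RNAi replicates 1 to 3, against 225, 325 and 348 FPKM in control replicates 1 to 3. The second dNKAP RNAi library was far below the other five. The log2 change was -0.79 (SE 0.57, 95% interval -2.23 to 0.64, limma adjusted p = 0.513), and -0.19 without that library. Of 17 reference transcripts 1, FBtr0089960 of 2003 bases, was above 0 in any library. The other tropomyosin gene, Tm2, stayed under the filter, at 0.255 to 0.788 FPKM in dNKAP RNAi discs and 0.390 to 1.61 FPKM in controls. The library low in Tm1 had the highest share of its FPKM in classes outside the gene values, 3.70% against 0.267% to 0.630% in the others. It was also the lowest of the 6 for cib, given with its list, and was the highest for Cortactin and cher. The part of that share in these values was not tested.

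Cortactin binds filaments and the Arp2/3 complex and steadies branches. Its level as a gene was 99.0, 138 and 107 FPKM in dNKAP RNAi replicates 1 to 3, against 108, 114 and 124 FPKM in control replicates 1 to 3. The groups overlapped, with means of 115 ± 20.4 FPKM in dNKAP RNAi discs and 115 ± 8.16 FPKM in controls (SD, n = 3 each). The log2 change was -0.02 (SE 0.14, 95% interval -0.37 to 0.33, limma adjusted p = 0.965), and -0.30 with exact matches alone (adjusted p = 0.397), where the new isoform in dNKAP RNAi replicate 2 is left out. Which of its transcripts carried that level differed between the groups.

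The transcript FBtr0084039 was listed at 0 in all 3 dNKAP RNAi libraries and had 78.0, 59.1 and 82.8 FPKM in control replicates 1 to 3. That was 0% of the gene in each dNKAP RNAi library and 72.3%, 51.8% and 66.8% of it in control replicates 1 to 3. The upper bound given with the values of 0 was at most 0.0483 FPKM. It was at most 0.0482 FPKM for the Cortactin transcript FBtr0306347 and 0.0436 FPKM for Act5C, both at 0 in all libraries. Such a bound cannot tell absence from a failed estimate. The read depth per base on FBtr0084039 in the controls was 430, 441 and 448. The difference passed the transcript test (limma adjusted p = 2.42e-04), where 52 of 8953 transcripts, 0.581%, were called lower and 182, 2.03%, higher, 2.61% in all. Groups did not overlap for 21.9% of tested transcripts, with all dNKAP RNAi libraries below all controls for 8.86% and above them for 13.1%. No fold is given against a group listed at 0, and such a group adds no spread to the transcript test.

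FBtr0306348 had 22.8 FPKM in dNKAP RNAi replicate 1 and 16.3 FPKM in dNKAP RNAi replicate 3, and in dNKAP RNAi replicate 2 a new isoform of 2551 bases nearest to it had 61.8 FPKM. It was listed at 0 in all 3 controls. Summed with the new isoform it was higher in dNKAP RNAi discs (limma adjusted p = 0.00833). By exact matches alone, with dNKAP RNAi replicate 2 at 0, it was not (adjusted p = 0.420; 0.00462 to 0.420 over 13 alternatives).

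FBtr0306349 had 76.2, 76.0 and 91.2 FPKM in dNKAP RNAi replicates 1 to 3, against 29.8, 54.9 and 41.2 FPKM in control replicates 1 to 3. It was the transcript of Cortactin above 0 in every library, and its groups did not overlap. The means were 81.1 ± 8.75 FPKM in dNKAP RNAi discs and 42.0 ± 12.6 FPKM in controls (SD, n = 3 each), with a log2 change of 0.98 (SE 0.24) that did not pass (limma adjusted p = 0.167, and 0.0727 to 0.390 over 14 alternatives). Its share of the gene was 77.0%, 55.1% and 84.9% in dNKAP RNAi replicates 1 to 3 and 27.7%, 48.2% and 33.2% in control replicates 1 to 3. The fourth annotated transcript, FBtr0306347, was at 0 throughout.

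**Figure D3:**
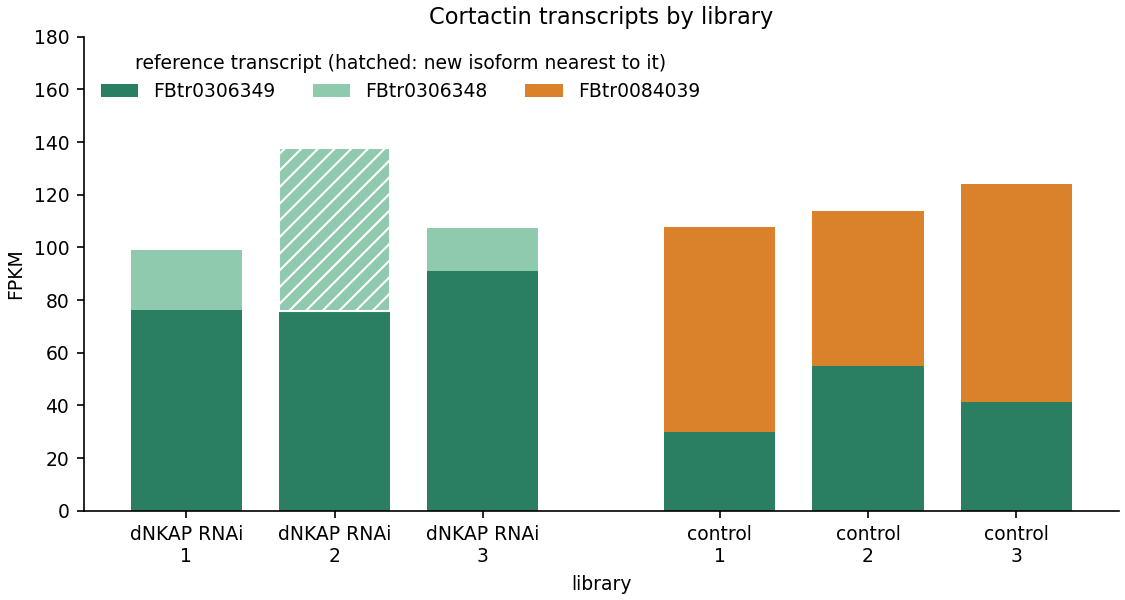
FPKM of the Cortactin transcripts, stacked, in 3 dNKAP RNAi libraries (left) and 3 control libraries (right); the hatched part is a new isoform counted under FBtr0306348. FBtr0084039 (orange) has 59.1 to 82.8 FPKM in controls and is at 0 in the dNKAP RNAi bars, while the stacked totals overlap.

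Relative to the other transcripts of the gene, FBtr0084039 was used less in dNKAP RNAi discs (limma diffSplice adjusted p = 1.02e-08) and FBtr0306348 more (adjusted p = 5.24e-08). FBtr0084039 was at 0 in all dNKAP RNAi libraries and FBtr0306348 in all controls, so each passed the filter through the other group alone. A group at 0 adds no spread to diffSplice either, so the size of these p-values is no measure of strength. The calls are also not separate, since they concern parts of 1 gene. The usage of FBtr0306349 did not pass (adjusted p = 0.187), and did without dNKAP RNAi replicate 2 (0.0155). Over 4297 transcripts 40, 0.931%, were called as used less and 50, 1.16%, as used more, 2.09% in either direction. diffSplice takes 1 spread for all transcripts of a gene, so the log2 ratio of each transcript to the rest of its gene was also tested with a spread of its own, an alternative chosen after seeing the data. That gave limma adjusted p of 0.00390 for FBtr0084039, 0.0179 for FBtr0306348 and 0.778 for FBtr0306349. When only transcripts above 0 in every library were tested, 2 were called as used less and 3 as used more over all genes, and neither FBtr0084039 nor FBtr0306348 could be tested.

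All 4 annotated transcripts of Cortactin (FBgn0025865, 3R, 21061680 to 21064471, minus strand of BDGP6) have the same coding exons, 559 codons from 21064064 down to 21062229, and differ in 5′ untranslated exons. In FBtr0084039 the first exon runs from 21064440 to 21064295 and holds 146 bases. FBtr0306349 and FBtr0306348 start 31 bases further upstream at 21064471, and 59 bases of that first exon, 21064422 to 21064364, are an intron in them. They differ from each other by 3 bases at the start of the next exon, which begins at 21064108 in FBtr0306349 and at 21064111 in FBtr0306348. FBtr0084039 and FBtr0306349 thus share 2357 of the 2416 and 2388 bases in their mature forms, so the bases that tell them apart lie in a short stretch at the 5′ end. The exons of the new isoform of 2551 bases are not in the columns used here.

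**Figure D4:**
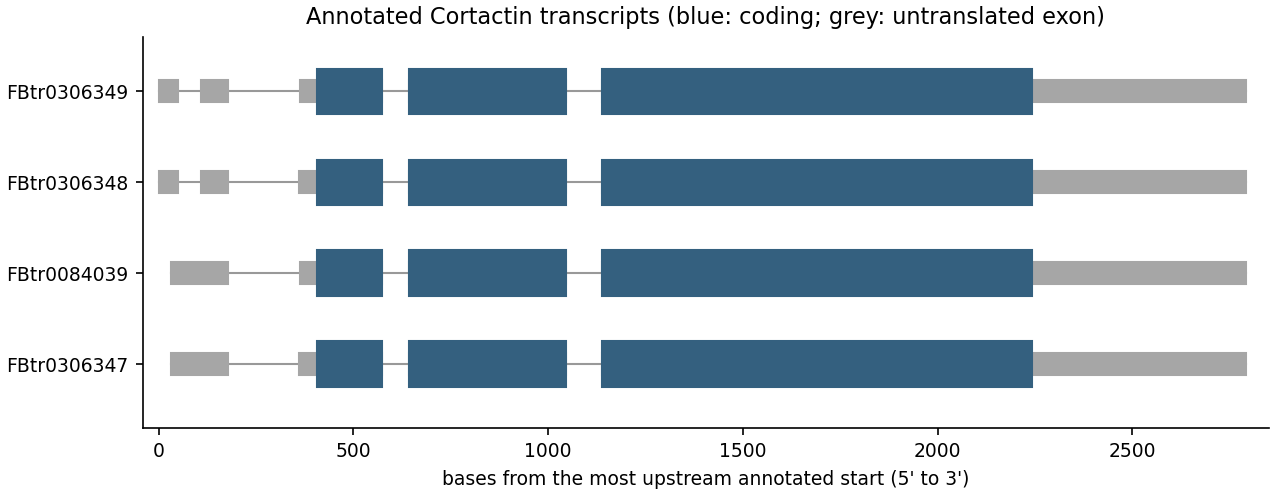
Exons of the 4 annotated Cortactin transcripts in bases from the most upstream start, 5′ to 3′ (blue, coding; grey, untranslated; line, intron). FBtr0306349 and FBtr0306348 start upstream and splice out 59 bases that the first exon of the other two retains; the blue blocks are the same in all 4.

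The members were set among 80 genes of 10 lists of the actin cytoskeleton, of which 67 were tested. Of these 2 were higher (form3 and Gel), 1 was lower (Act42A) and 64 did not pass, against 3.72% called over all tested genes, with a median log2 change of 0.01. Without the 10 members 58 were tested, with a median of 0.03, against 0.03 for all tested genes, and 10 of the 58, or 17.2%, had an unadjusted p under 0.05, against 19.0% of all tested genes. Besides Act5C and Act87E, 6 listed genes were at 0 in every library: Arp3, Arpc3A, Arpc5, SCAR, f and Myo10A.

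form3, a formin of the family that elongates unbranched filaments, rose. It had 13.8, 12.6 and 13.5 FPKM in dNKAP RNAi replicates 1 to 3, against 7.64, 7.87 and 7.99 FPKM in control replicates 1 to 3. The groups lay well apart, at 13.3 ± 0.623 FPKM in dNKAP RNAi discs and 7.83 ± 0.179 FPKM in controls (SD, n = 3 each), for a log2 change of 0.73 with an SE of 0.08 (limma adjusted p = 0.0103). It was the 1 of 8 formins and elongation factors past the test, and stayed under 0.05 with each library left out (0.0334 to 0.0474). Its exons share 85 bases with msl-3 on the other strand, which had 28.2 to 29.9 FPKM in dNKAP RNAi discs and 22.0 to 28.6 FPKM in controls.

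Gel, for gelsolin, which severs and caps filaments, also rose. It had 30.6, 27.6 and 28.8 FPKM in dNKAP RNAi replicates 1 to 3, against 20.9, 20.5 and 22.8 FPKM in control replicates 1 to 3. The groups did not overlap, at 29.0 ± 1.48 FPKM in dNKAP RNAi discs and 21.4 ± 1.25 FPKM in controls (SD, n = 3 each), for a log2 change of 0.43 with an SE of 0.07 (limma adjusted p = 0.0472). Leaving out any 1 library took its adjusted p to 0.0656 to 0.137. It was the 1 of 4 capping and severing genes past the test.

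**Figure D5:**
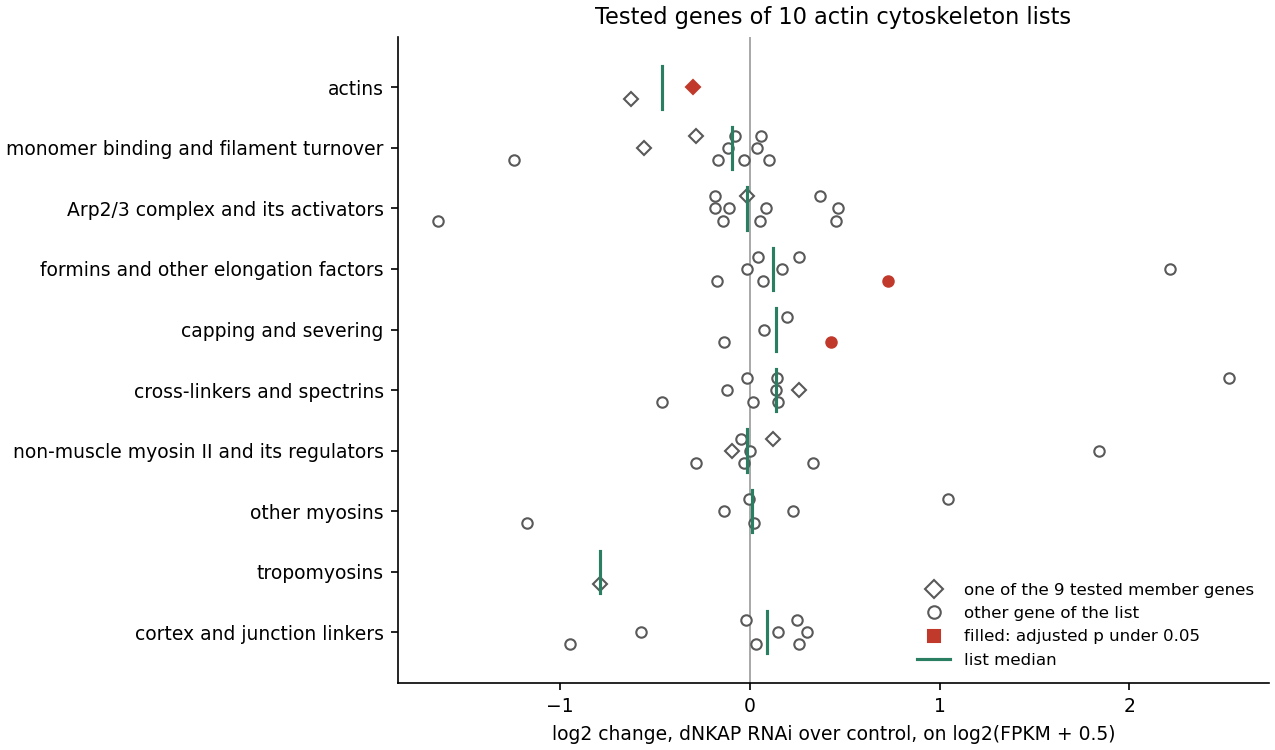
Log2 change, dNKAP RNAi over control, of the tested genes in 10 lists; diamonds are the 9 tested members, circles the other genes, filled symbols have an adjusted p under 0.05 and green lines are list medians. The filled symbols are Act42A, form3 and Gel; the genes beyond 1 on either side include ones listed at 0 in some libraries.

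In the lists that follow limma called 0 genes, and those with an unadjusted p under 0.05 are counted above. Among 10 tested monomer-binding and turnover factors, with a median log2 change of -0.10, the thymosin-repeat gene cib had 746, 142 and 845 FPKM in dNKAP RNAi replicates 1 to 3, against 849, 1401 and 999.6 FPKM in control replicates 1 to 3 (limma adjusted p = 0.425). All dNKAP RNAi libraries of cib were below all controls, with replicate 2 far below the rest. Of the Arp2/3 complex and its activators 11 of 15 were tested, with a median of -0.02. Its subunit gene Arpc4 averaged 160 ± 31.1 FPKM in dNKAP RNAi discs and 172 ± 14.9 FPKM in controls, and Arpc1 110 ± 9.30 FPKM in dNKAP RNAi discs and 121 ± 3.86 FPKM in controls (SD, n = 3 each).

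The 9 tested cross-linkers and spectrins had a median of 0.13. Among them beta-Spec averaged 185 ± 17.4 FPKM in dNKAP RNAi discs and 183 ± 6.99 FPKM in controls, and alpha-Spec 156 ± 4.65 FPKM in dNKAP RNAi discs and 158 ± 79.5 FPKM in controls (SD, n = 3 each). The 8 genes of myosin II and its regulators, zip and sqh included, had a median of -0.02. The 6 tested genes of other myosins had a median of 0.01, with jar, the myosin VI gene, at 60.9 ± 19.2 FPKM in dNKAP RNAi discs and 59.7 ± 9.88 FPKM in controls and Myo61F at 45.7 ± 6.98 FPKM in dNKAP RNAi discs and 50.1 ± 3.69 FPKM in controls (SD, n = 3 each).

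The 8 linkers of cortex and junctions had a median of 0.09. Among them Moe, for moesin, which ties filaments to the membrane, averaged 544 ± 145 FPKM in dNKAP RNAi discs and 524 ± 77.4 FPKM in controls (SD, n = 3 each). The gene pyd, for the fly relative of the junction protein ZO-1, had 184, 181 and 183 FPKM in dNKAP RNAi replicates 1 to 3, against 164, 160.3 and 170 FPKM in control replicates 1 to 3, with a log2 change of 0.15 that did not pass (limma adjusted p = 0.160).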

How the data were processed

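Per the labels' protocols, Trizol-extracted RNA of wing discs was turned into Illumina libraries and read on a NextSeq. The authors deposited 1 table of transcripts per library, with FPKM and its bounds, scaled to transcript length and library size, and with coverage, a signal of mean read depth per base, per the file headers. The submitters' processing notes name FastQC, HTSeq, DESeq and dm6. Neither an aligner nor an annotation release nor a strand setting is given in the sources used here. The tables hold no read counts.

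A gene's value was the summed FPKM of transcripts classed as exact, contained, new isoform or exonic overlap; new isoforms were also summed under their nearest reference transcript. zip is listed under an older identifier and was matched through its transcripts. Groups were compared with limma 3.58.1 (R 4.3.3), fitted with a trend of variance on mean level to log2(FPKM + 0.5) of features with a mean of at least 1 FPKM, two-sided, with Benjamini-Hochberg adjustment over all features and a threshold of 0.05. Tables were built in Python 3.11.15 (pandas 2.3.3, numpy 2.4.6) and plots in matplotlib 3.10.9. The tests were run on simulated data, which were not set up with a transcript at 0 in a whole group, so they do not bear on that case. Exons are from the Ensembl BDGP6 annotation.

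The members, lists and tests were chosen with earlier results of these data known. Named genes are CG6066, the 10 members, in each of 10 lists the genes past the threshold or else the 2 most abundant, and the 3 genes most like Act42A; other genes were named after their values were seen. Another list is not reported here. Deposited bounds cover the estimate within a library, with a median half-width of 7.47% to 8.81% for transcripts of 10 to 50 FPKM. Alternatives were other pseudocounts, filters, classes and scalings, a replicate block, and each library left out.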

Additional observations from a re-analysis of the deposited data

How the results depend on the processing

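Direction and side of the threshold held under all 14 alternatives for Act57B, chic, tsr, zip and Tm1, which did not pass. They held under 13 for the transcript test of FBtr0084039, which could not be run among features above 0 in every library. For the usage of FBtr0084039 and of FBtr0306348, which lack that setting too, they held under 14. Those 14 include the test of the transcript share, chosen after seeing the data. The call of Act42A was lost in 9 of 14, each left-out library among them, and that of Gel in 10. Sign changed for sqh (-0.32) and cher (-1.65) with exact matches alone, and for Cortactin as a gene with libraries left out (-0.16 to 0.0809; 0.0809 without dNKAP RNAi replicate 1, 0.02 without dNKAP RNAi replicate 3 and 0.04 without control replicate 3); the cause was not tested. The fitted log2 difference of FBtr0306348, at 0 in all controls, is set by the pseudocount (8.16 at 0.1 and 4.89 at 1) and measures no fold; it came to 3.54 with exact matches, where dNKAP RNAi replicate 2 is at 0 too, and its call was lost. The usage difference of FBtr0306349 was 1.36 to 1.97 on the log2 scale with libraries left out. Leaving out single libraries gave 126 to 159 higher and 28 to 34 lower genes (126 and 135 higher without dNKAP RNAi replicates 1 and 3), 118 to 171 higher and 64 to 77 lower transcripts, and 65 to 84 transcripts used more and 67 to 75 used less. Lower genes numbered 60 with no filter, 59 among those above 0 in every library, 62 after quantile normalization and 61 after median-ratio scaling. Lower transcripts numbered 80 with no filter and 24 among those above 0 in every library. Transcripts used more numbered 3 and those used less 2 among those above 0 in every library, 31 and 26 with exact matches, and 29 were used more in the test of the transcript share.

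Deviations of same-numbered libraries correlated at 0.017, 0.068 and 0.064 over 5511 genes, and those of differently numbered libraries at -0.116 to 0.055. Values this small gave little sign that replicate numbers pair the libraries, and cannot exclude it. With the replicate block 72 genes were higher and 5 lower, and 13 transcripts were higher and 8 lower. With it the call of FBtr0306348 was lost (fitted difference 5.86, limma adjusted p = 0.102), and the limma adjusted p was 0.225 for Act42A, 0.105 for form3, 0.195 for Gel and 0.134 for CG6066. The block changed the call of no other member or Cortactin transcript. The half-width of the deposited bounds was 8.36% to 16.6% of the value for Act57B, the lowest of the tested members, against 0.850% to 1.19% for Act42A.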
